A study of Sus scrofa with 12 samples.

Results

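The genes described here are the DNA replication and S-phase genes: the proteins that mark, open and copy the genome once per cell cycle, supply its nucleotides, repackage the copy into chromatin, and switch the programme on. A list of 45 gene names was drawn up by role, and each name was looked up among the 31908 genes of the deposited RNA-seq table. By name, 39 were found, and these are the members counted throughout. A further 4 (CDT1, CCNE1, POLA2 and PRIM1) have a row without a symbol and were found through their Ensembl identifier, so they are given beside the members and not among their counts. RRM2 matched no row, and the row with the identifier of POLE2 carries the name of another gene, so neither is analysed here.

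The study sequenced total RNA of muscle satellite cells of the pig, stem cells that lie along the fibres, divide as myoblasts when activated, and then leave the cell cycle to fuse into new fibre. A control arm (called WT in the sample labels and NC in the table) and an arm called CBP were each sampled at the proliferation stage (0h) and at the differentiation stage (60h), with 3 libraries in each of the 4 groups. The labels give the treatment as SGC-CBP30, a compound that blocks the acetyl-lysine-binding bromodomain of CBP and of its relative p300, at 5 uM/ml, for 48 h while cells proliferated and 60 h while they differentiated. This text stands on the control samples too, and the arm itself is entered under genotype. What the control cells received is not given in the sources used here, and the arms are called control and CBP below. All samples carry the cell line label C3H, and nothing states that the replicates were separate cultures, so p-values measure only the spread between these libraries, which may be technical.

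Replication begins with licensing. The origin recognition complex, with CDC6 and CDT1, loads the MCM2 to MCM7 ring onto origins in G1, and in S phase MCM10, CDC45 and the GINS complex turn that ring into a moving helicase. Polymerases, the sliding clamp PCNA with its RFC loader, and the enzymes that join lagging-strand fragments then copy the DNA. E2F factors, held in check by the RB family, drive transcription of most of these genes, and myoblasts switch the programme off as they differentiate.

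Depth was 16095335 to 19155240 gene-assigned reads per library, as recovered from the deposited values, and the members had between 78 and 5239 reads in a library, with more than 100 in every library for 37 of the 39. Levels are FPKM, fragments per kilobase of gene and scaled to the library's assigned reads. All 39 members were among the 11636 genes tested; 38 would have passed the filter on low values in the control libraries alone, whereas CDC6 reached 1 FPKM in 1 of 6 control libraries and in 6 of 6 CBP libraries. Markers of the labelled cell type were present at 0h in control cells: PAX7 stood at 14.4 FPKM ± 0.15, MYF5 at 136 ± 4.9 and MYOD1 at 22.3 ± 0.98 (SD, n = 3). Of the 5 immune markers, PTPRC, a marker of all leukocytes, did not exceed 0.011 FPKM, CSF1R did not exceed 0.094 and LYZ and CD3E were at 0 in all 12 libraries. CD68, a lysosomal gene of macrophages, averaged 3.99 FPKM in control 0h, 4.38 in CBP 0h, 1.36 in control 60h and 2.65 in CBP 60h libraries. It was called higher in CBP cells at 60h and lower at 60h than at 0h in both arms. Of the members, 38 have a placed position, over 15 chromosomes, in the RefSeq annotation of the pig genome (Sscrofa11.1), among them MCM2 at chr13:72630378-72651270, PCNA at chr17:14137746-14142584, E2F1 at chr17:37178587-37190118 and TYMS at chr6:105642730-105660279. The spans of 13 of these, such as MCM7 with AP4M1, GINS2 with GSE1 and CCNE2 with INTS8, overlap another annotated gene. Whether counting used the strand is not given in the sources used here, and whether such genes share reads was not tested.

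Nearly the whole set was higher in CBP cells than in control cells at 0h. Summed over the 39 members, the level was 519 to 536 FPKM in the control libraries and 797 to 836 FPKM in the CBP libraries. The test called 36 members higher, none lower and 3 (GINS2, GINS3 and E2F2) neither, at adjusted p values from 1.05e-08 to 0.0205 among those called. This is 92.3% of the members called higher, beside 44.2% of all genes tested called higher and 18.1% called lower. The median change of the members was 0.68 on the log2(FPKM + 1) scale (range -0.03 to 0.95), beside 0.12 for all genes tested, and the median ratio of group means was 1.67. The same 36 members had no CBP library as low as the highest control library, which held for 47.2% of all genes tested.

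At 60h most members were again higher in the CBP arm, from lower levels in both arms. The summed level was 399 to 408 FPKM in control and 585 to 620 FPKM in CBP libraries. Here 34 members were called higher, 2 lower (TYMS and GINS3) and 3 neither (ORC6, RFC3 and E2F2), beside 44.7% of all genes tested called higher and 27.0% called lower. The median change was 0.48 (range -0.41 to 1.16), beside 0.10 for all genes, and the median ratio of means was 1.47. In total 33 members were called higher at both stages.

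Another scaling moved the background. With each library scaled by its median ratio to the average library, the all-gene medians moved to 0.00 at 0h and -0.01 at 60h, and all-gene calls moved from 5148 higher and 2102 lower to 2987 and 3095 at 0h, and from 5200 and 3137 to 3834 and 4192 at 60h. The members' own medians were 0.57 and 0.36, with 35 higher and 0 lower at 0h and 33 higher and 3 lower at 60h. Such scaling shifts all genes of a library by nearly the same amount. It therefore cannot test the distance between the members' median and that of all genes.

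**Figure D1:**
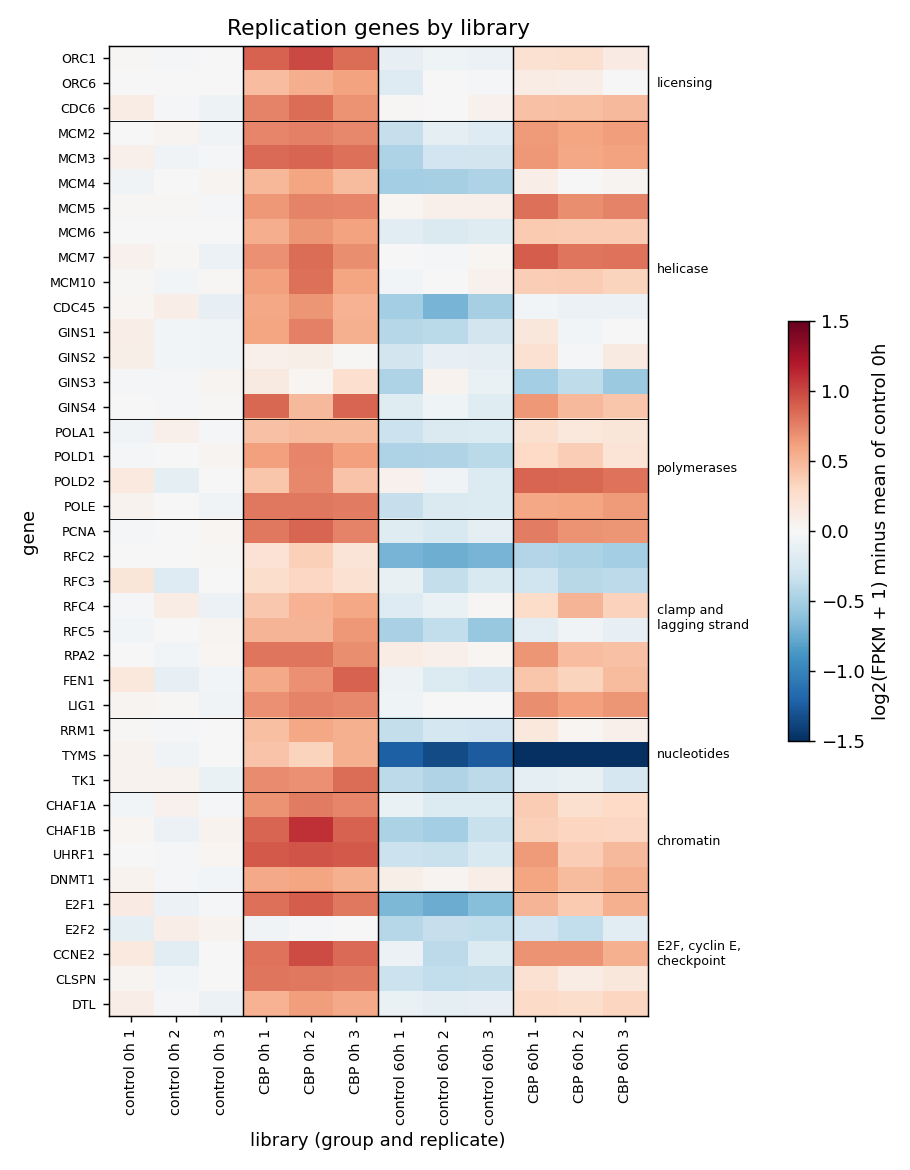
Each row is 1 of the 39 members, grouped by role, and each column 1 of the 12 libraries; colour gives log2(FPKM + 1) minus the gene's mean over the 3 control 0h libraries, and saturates at the ends of the scale, which TYMS passes in the CBP 60h libraries. The CBP 0h columns are red for all but a few rows, and the control 60h columns are mostly blue.

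Muscle and other marker genes differed between the arms as well. The satellite cell and myoblast list (PAX7, MYF5, MYOD1, MYOG, DES, CDH15 and ITGA7) had 7 of 7 genes lower in CBP cells at 0h, with summed levels of 1810 to 1833 FPKM in control and 684 to 724 FPKM in CBP libraries. MYOG, the myogenin gene whose onset marks commitment to differentiation, was at 343 FPKM ± 10.0 in control 0h libraries and at 28.5 ± 1.0 in CBP 0h libraries, then at 589 ± 13.2 and 448 ± 9.5 at 60h (SD, n = 3). At 60h the list had 4 genes higher and 3 lower, and sums of 1774 to 1924 and 1257 to 1358 FPKM. Fibroblast markers had 4 of 5 genes lower at 0h, with sums of 784 to 812 and 401 to 418 FPKM, and smooth muscle markers had 5 of 5 lower, with sums of 2592 to 2693 and 809 to 861 FPKM. At 60h these lists had 2 higher and 1 lower, and 1 higher and 4 lower. Endothelial markers summed to at most 3.56 FPKM in any library. The part of these shifts in the members' values was not tested, and in bulk RNA fewer cells of a type and less RNA per cell cannot be told apart.

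Among the licensing factors, ORC1, the ATPase subunit that helps the origin recognition complex bind DNA, was 2.08-fold higher in CBP cells at 0h. Its levels were 4.42, 4.29 and 4.37 FPKM in the control 0h libraries and 8.92, 9.65 and 8.62 FPKM in the CBP 0h libraries, then 3.91, 4.12 and 4.03 in control and 5.26, 5.30 and 4.84 in CBP at 60h. The arms did not overlap at either stage, but the gap narrowed from a log2 change of 0.91 ± 0.05 (SE, adjusted p = 1.86e-08) to 0.29 ± 0.05 (adjusted p = 0.000186). CDC6, which recruits the helicase ring together with CDT1, had the lowest mean of all 39 members in each of the 4 groups. It stood at 1.01, 0.82 and 0.77 FPKM in control 0h, 2.12, 2.32 and 1.96 in CBP 0h, 0.88, 0.85 and 0.94 in control 60h and 1.52, 1.53 and 1.60 in CBP 60h libraries. The ratio of its means was 2.48 at 0h and 1.75 at 60h, without overlap. The gene entered the test only through the CBP libraries, where it is high, so these values are a description and its calls give no support. They remain included in the counts of members called. ORC6, the smallest ORC subunit, rose 1.53-fold at 0h (log2 change 0.54 ± 0.06, adjusted p = 8.51e-06), but at 60h it overlapped between arms, with 0.14 ± 0.06 and an adjusted p of 0.0553, and was called higher only without CBP 60h replicate 3 or control 60h replicate 2 (0.17 in both, adjusted p = 0.0307 and 0.0313). CDT1, found by identifier, was at 4.27, 4.72 and 3.77 FPKM in control 0h and 7.78, 7.59 and 7.20 in CBP 0h libraries, and at 2.79, 2.99 and 2.98 against 5.23, 4.38 and 5.70 at 60h. It was called higher at both stages, with log2 changes of 0.70 ± 0.08 and 0.63 ± 0.08.

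All 6 ring subunits, MCM2 to MCM7, were called higher in CBP cells at both stages, with ratios of means from 1.45 (MCM4) to 1.85 (MCM3) at 0h and from 1.48 (MCM4) to 2.01 (MCM3) at 60h. MCM2 stood at 16.4, 16.9 and 15.7 FPKM in control 0h libraries, 27.9, 28.2 and 27.5 in CBP 0h, 12.7, 14.7 and 14.2 in control 60h and 25.9, 25.2 and 25.7 in CBP 60h libraries. Every CBP library was above every control library of either stage, and the log2 change was 0.73 ± 0.05 at 0h and 0.84 ± 0.05 at 60h (adjusted p = 7.68e-08 and 9.76e-09). For MCM3 the values were 17.6, 16.0 and 16.4 FPKM in control 0h, 30.7, 31.4 and 30.3 in CBP 0h, 11.8, 13.4 and 13.6 in control 60h and 26.7, 25.3 and 25.8 in CBP 60h. MCM5 was at 14.4, 14.4 and 13.9 FPKM in control 0h, 22.9, 24.5 and 24.2 in CBP 0h, 14.5, 15.0 and 15.0 in control 60h and 26.1, 23.7 and 24.4 in CBP 60h libraries. Its change was 0.71 ± 0.04 at 0h and 0.70 ± 0.04 at 60h, and neither arm passed the test between stages as deposited, while both were called higher at 60h under median-ratio scaling (0.12 in both).

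The products of the 6 ring genes assemble in equal numbers, while their FPKM levels, which are per length of gene, differed beyond their spread. The highest mean was 2.12 times the lowest in control 0h (MCM4 at 30.1 FPKM, MCM5 at 14.2), 2.09 times in CBP 0h (MCM7 at 49.9, MCM5 at 23.9), 2.28 times in control 60h (MCM7 at 29.5, MCM3 at 12.9) and 2.16 times in CBP 60h (MCM7 at 53.5, MCM5 at 24.7). MCM4 and MCM7 did not differ beyond their spread in control 0h, at 30.1 ± 1.0 and 29.5 ± 1.7 FPKM (SD, n = 3). The span of MCM7 overlaps that of AP4M1, and whether reads were shared was not tested.

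**Figure D2:**
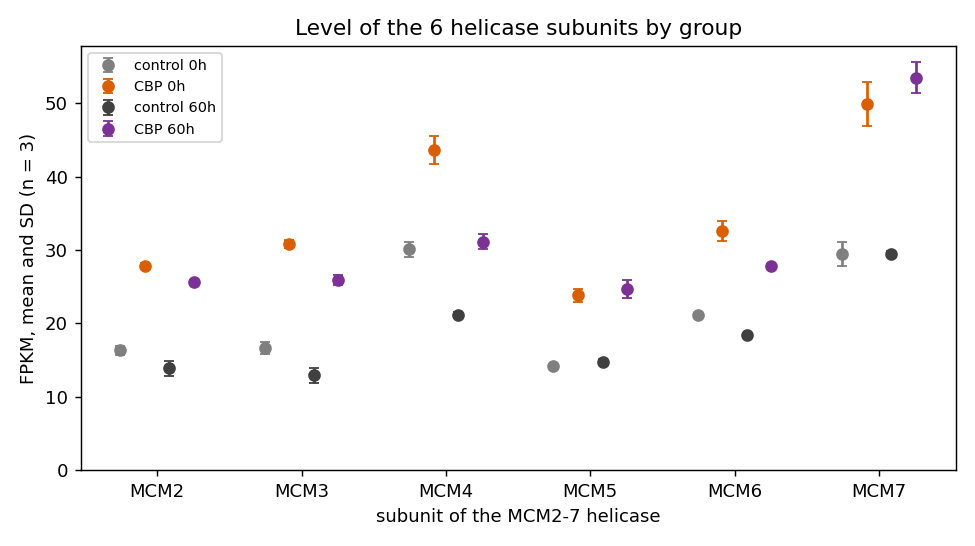
Mean FPKM with SD (n = 3 libraries) of the 6 subunits of the MCM ring, with 1 point per group. In each subunit both CBP points lie above the control point of the same stage, with MCM7 highest in CBP 60h at 53.5 FPKM.

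The factors that activate the ring were less uniform. MCM10, CDC45, GINS1 and GINS4 were called higher in CBP cells at both stages, with log2 changes from 0.59 (CDC45) to 0.74 (GINS4) at 0h and from 0.36 (MCM10) to 0.66 (GINS4) at 60h. CDC45, the helicase cofactor recruited as origins fire, went from 11.3 FPKM ± 0.96 to 17.4 ± 0.94 at 0h and from 7.27 ± 0.63 to 10.6 ± 0.24 at 60h (SD, n = 3). GINS2 and GINS3 encode partners of GINS1 and GINS4 in a 4-subunit complex, and they behaved otherwise. GINS2 overlapped between arms at 0h, with 4.54 FPKM ± 0.30 in control and 4.78 ± 0.17 in CBP, a log2 change of 0.06 ± 0.07 (adjusted p = 0.465), and was called higher at 60h (0.29 ± 0.07, adjusted p = 0.00286). GINS3 was at 3.41, 3.39 and 3.58 FPKM in control 0h, 3.91, 3.54 and 4.30 in CBP 0h, 2.24, 3.64 and 3.17 in control 60h and 2.12, 2.42 and 2.04 in CBP 60h libraries. The arms overlapped at both stages, through CBP replicate 2 at 0h and control replicate 1 at 60h, on 78 to 144 reads per library. Its call as lower at 60h (-0.32 ± 0.11, adjusted p = 0.0225) depended on single libraries and on the setting. It was -0.20 with an adjusted p of 0.106 without control 60h replicate 2, and it was also lost without CBP 60h replicates 1 or 3 (-0.30 and -0.28) or control 60h replicate 3 (-0.28). With every library kept, the call was lost with no filter on low values (adjusted p = 0.0546) and with only the groups compared in the fit (adjusted p = 0.0581).

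All 4 polymerase genes rose in CBP cells at both stages. POLE, the catalytic subunit of the leading-strand polymerase, was at 5.504, 5.24 and 5.03 FPKM in control 0h, 9.80, 9.85 and 9.75 in CBP 0h, 3.92, 4.39 and 4.41 in control 60h and 8.36, 8.46 and 8.71 in CBP 60h libraries. Its ratio of means was 1.86 at 0h and 2.01 at 60h, with no overlap and log2 changes of 0.79 ± 0.05 and 0.86 ± 0.05. POLD2, an accessory subunit of the lagging-strand polymerase, stood at 4.90, 3.81 and 4.32 FPKM in control 0h, 6.12, 7.80 and 6.17 in CBP 0h, 4.55, 4.12 and 3.61 in control 60h and 8.73, 8.65 and 8.35 in CBP 60h libraries. It was the only member called higher at 60h than at 0h in CBP cells on the deposited scale (0.32 ± 0.10, adjusted p = 0.00954). POLD1, the catalytic subunit of that enzyme, was called higher by 0.66 ± 0.05 and 0.73 ± 0.05, and POLA1, the catalytic subunit of the polymerase that starts each strand, by 0.46 ± 0.05 and 0.44 ± 0.05. Of its partners found by identifier, the primase gene PRIM1 was called higher by 0.62 ± 0.07 and 0.50 ± 0.07, and POLA2 by 0.52 ± 0.04 at 0h and 0.18 ± 0.04 at 60h. Under median-ratio scaling POLA2 no longer passed at 60h (0.06, adjusted p = 0.255).

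PCNA, the ring that tethers polymerases to DNA, had the largest change at both stages among the clamp and lagging-strand genes. It was at 13.1, 13.2 and 13.6 FPKM in control 0h, 23.8, 25.1 and 22.9 in CBP 0h, 11.6, 11.2 and 11.9 in control 60h and 23.3, 21.8 and 21.7 in CBP 60h libraries. The CBP libraries of both stages lay apart from all control libraries, and the log2 change was 0.80 ± 0.04 at 0h and 0.89 ± 0.04 at 60h (adjusted p = 1.43e-08 and 2.45e-09). LIG1, which seals the nicks between lagging-strand fragments, rose by 0.72 ± 0.04 and 0.69 ± 0.04, FEN1, which trims their flaps, by 0.71 ± 0.09 and 0.59 ± 0.09, and RPA2, which coats single-stranded DNA, by 0.77 ± 0.06 and 0.45 ± 0.06.

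The RFC genes, which encode subunits of the clamp loader, had log2 changes of 0.26 to 0.55 at 0h. RFC2 was the most abundant member in control cells at both stages and rose 1.20-fold at 0h and 1.19-fold at 60h, from 65.0 FPKM ± 0.85 to 78.0 ± 5.04 and from 39.2 ± 0.58 to 46.6 ± 1.14 (SD, n = 3). RFC4 and RFC5 were called higher at both stages, by 0.50 ± 0.08 and 0.55 ± 0.06 at 0h and by 0.47 ± 0.08 and 0.37 ± 0.06 at 60h. RFC3 was called higher at 0h by 0.27 ± 0.09 (adjusted p = 0.0205), and at 60h its change was -0.14 ± 0.09 (adjusted p = 0.191). The 0h call of RFC3 was lost without control 0h replicate 2 (0.17, adjusted p = 0.092), without CBP 0h replicate 2 (0.25, adjusted p = 0.0626) and under median-ratio scaling (0.16, adjusted p = 0.156), which in turn called it lower at 60h (-0.24, adjusted p = 0.0297).

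The nucleotide supply genes rose together at 0h and parted at 60h. TYMS, thymidylate synthase, which makes the thymidine nucleotide used only in DNA, was at 61.9, 57.3 and 59.5 FPKM in control 0h and 80.7, 75.6 and 86.8 in CBP 0h libraries. At 60h it was at 24.9, 22.8 and 24.5 FPKM in control and 19.5, 16.9 and 17.3 in CBP libraries. The arms did not overlap at either stage, yet their order turned: the log2 change was 0.44 ± 0.06 at 0h (adjusted p = 5.85e-05) and -0.41 ± 0.06 at 60h (adjusted p = 6.36e-05). At 0h TYMS and RFC2 were the most abundant members, and in CBP 0h cells, at 81.0 ± 5.6 and 78.0 ± 5.0 FPKM, they did not differ beyond their spread. TK1, the salvage enzyme for thymidine, was at 15.5, 15.5 and 13.9 FPKM in control 0h, 25.0, 24.8 and 27.6 in CBP 0h, 11.2, 10.7 and 11.12 in control 60h and 13.6, 13.8 and 12.4 in CBP 60h libraries. The arms did not overlap at either stage, with changes of 0.75 ± 0.06 and 0.25 ± 0.06, the second of which had an adjusted p of 0.0504 under median-ratio scaling. RRM1, the large subunit of ribonucleotide reductase, was called higher by 0.52 ± 0.04 and 0.39 ± 0.04, from 33.7 and 27.2 FPKM in the control groups.

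The 4 chromatin genes rose at both stages. CHAF1B, a subunit of the CAF-1 complex that deposits histones behind the fork, had the largest change of the 39 at 0h on the log2(FPKM + 1) scale. The added 1 shrinks the changes of low genes. By ratio of means CHAF1B, at 2.06, lay below CDC6, CCNE2 and ORC1. It was at 7.68, 7.02 and 7.84 FPKM in control 0h, 14.6, 17.1 and 14.8 in CBP 0h, 5.12, 4.97 and 5.76 in control 60h and 9.90, 9.66 and 9.57 in CBP 60h libraries, with changes of 0.95 ± 0.07 and 0.77 ± 0.07. UHRF1, which reads half-methylated DNA and brings in DNMT1, was at 18.3, 17.7 and 18.5 FPKM in control 0h, 35.4, 36.0 and 35.1 in CBP 0h, 14.3, 14.2 and 15.4 in control 60h and 28.9, 23.7 and 25.8 in CBP 60h libraries. No library of one arm reached the other arm for either gene. CHAF1A changed by 0.73 ± 0.05 and 0.48 ± 0.05. DNMT1, the maintenance DNA methyltransferase, changed by 0.56 ± 0.04 and 0.46 ± 0.04, and in neither arm did it pass the test between stages, although in control cells it was called higher at 60h under median-ratio scaling (0.14) and without control 0h replicate 1 (0.10, adjusted p = 0.0475).

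The E2F genes split. E2F1, an activator of the S-phase programme, was at 11.8, 10.1 and 10.5 FPKM in control 0h, 19.99, 21.1 and 19.4 in CBP 0h, 6.37, 6.04 and 6.58 in control 60h and 15.8, 14.4 and 16.0 in CBP 60h libraries. Its change grew from 0.84 ± 0.06 at 0h to 1.16 ± 0.06 at 60h, the largest of the 39 at that stage and a ratio of means of 2.44 (adjusted p = 1.76e-07 and 4.42e-09). E2F2, a second activator, was at 2.48, 3.12 and 2.99 FPKM in control 0h, 2.70, 2.78 and 2.87 in CBP 0h, 1.86, 2.04 and 1.98 in control 60h and 2.16, 1.98 and 2.46 in CBP 60h libraries. Its arms overlapped at both stages, with -0.03 ± 0.07 (adjusted p = 0.781) and 0.11 ± 0.07 (adjusted p = 0.197). Both E2F genes were lower at 60h than at 0h in both arms, E2F2 in CBP cells with an adjusted p of 0.00977 that became 0.0705 under TPM scaling.

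CCNE2, the cyclin E that partners CDK2 at the start of S phase, was at 3.41, 2.58 and 3.01 FPKM in control 0h, 6.03, 6.86 and 6.17 in CBP 0h, 2.74, 2.03 and 2.45 in control 60h and 5.38, 5.35 and 4.75 in CBP 60h libraries. The CBP libraries of both stages stood above all control libraries, and the ratio of means was 2.12 at 0h and 2.15 at 60h (log2 change 0.88 ± 0.09 and 0.86 ± 0.09). CCNE1, found by identifier, changed by 0.46 ± 0.08 and 0.38 ± 0.08, with 2.46, 2.27 and 1.79 FPKM in control 0h, 3.52, 3.28 and 3.26 in CBP 0h, 1.85, 2.07 and 1.74 in control 60h and 2.58, 2.74 and 2.94 in CBP 60h libraries. CLSPN, which carries the checkpoint signal from stalled forks, rose by 0.79 ± 0.04 and 0.52 ± 0.04, and DTL, the substrate receptor that marks CDT1 for destruction in S phase, by 0.57 ± 0.06 and 0.41 ± 0.06.

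**Figure D3:**
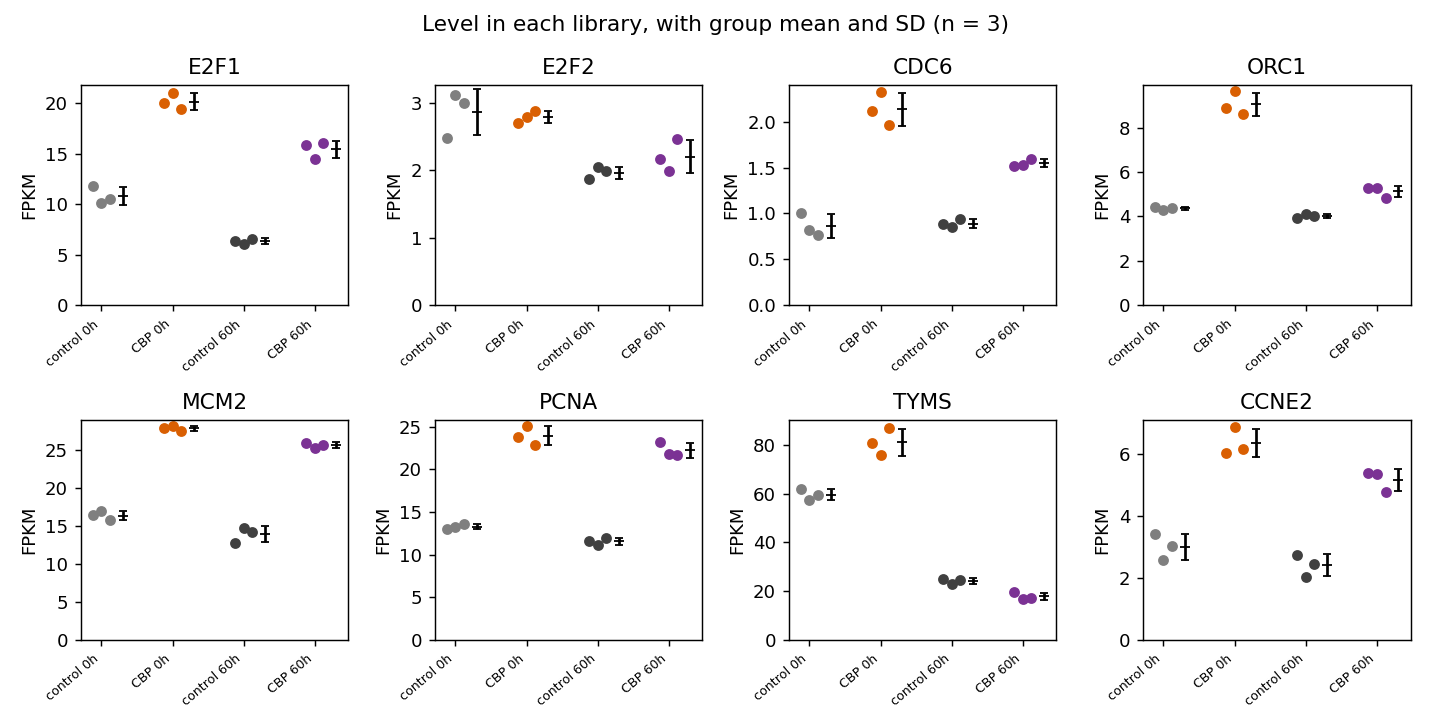
FPKM in each of the 12 libraries for 8 members, with the group mean and SD (n = 3) drawn beside the points and each axis starting at 0. TYMS is higher in CBP than in control at 0h and lower at 60h, and the E2F2 arms overlap at both stages.

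Between stages, the set fell in both arms. In control cells 24 members were lower at 60h than at 0h, 0 higher and 15 neither, with a median of -0.22, beside 38.0% of all genes tested called lower and 28.8% called higher, whose median was -0.05. In CBP cells 32 fell, 1 rose (POLD2) and 6 passed in neither direction (DNMT1, GINS2, LIG1, MCM5, MCM7 and RFC4), with a median of -0.31, beside 41.5% of all genes called lower and 31.3% called higher, whose median was -0.06. The largest fall in both arms was that of TYMS, by 1.27 on the log2(FPKM + 1) scale in control and by 2.12 in CBP cells. It was followed in control cells by RFC2, which fell by 0.71, and E2F1, which fell by 0.69. In CBP cells TK1 came next with a fall of 0.91, then RFC2 with 0.73 and ORC1 with 0.71. The 3 licensing members did not pass in control cells, where ORC1 changed by -0.09, ORC6 by -0.07 and CDC6 by 0.02. All 3 were called lower in CBP cells, though the call of CDC6 gives no support. CDT1, the licensing gene found by identifier, was called lower in both arms. It changed by -0.42 ± 0.08 in control (adjusted p = 0.000699) and by -0.49 ± 0.08 in CBP cells. These comparisons share their libraries with those between arms. Marker lists moved between stages too: the fibroblast list had 5 of 5 genes higher at 60h in both arms, with sums of 784 to 812 FPKM at 0h and 3069 to 3222 at 60h in control and of 401 to 418 and 1777 to 1963 in CBP libraries. The smooth muscle list had 3 of 5 higher and 0 lower in control and 5 of 5 higher in CBP cells. The satellite cell and myoblast list had 1 higher and 5 lower in control and 5 higher and 2 lower in CBP cells. A stress list (HSPA5, DDIT3 and ATF3) had 3 of 3 higher in both arms, with sums of 198 to 208 FPKM at 0h and 638 to 647 at 60h in control and of 208 to 211 and 454 to 468 in CBP libraries. Their part in the members' changes was not tested. In 31 of the 39 members the mean in CBP 60h cells was above the mean in control 0h cells, and in 8 (CDC45, GINS3, RFC2, RFC3, RFC5, TYMS, TK1 and E2F2) it was below, a description with no test. Under median-ratio scaling the counts were 20 lower and 2 higher in control and 28 lower and 3 higher in CBP cells, where MCM5 and DNMT1 (control) and MCM5, MCM7 and POLD2 (CBP) were the ones higher, while all-gene calls moved from 3351 higher and 4424 lower to 3957 and 3737 in control and from 3638 and 4826 to 4177 and 4169 in CBP cells. Under TPM scaling 20 members were lower and 3 higher in control cells, and 24 lower and 3 higher in CBP cells. The all-gene calls, over 13286 genes, were then 4382 higher and 3880 lower in control, and 4951 and 4101 in CBP cells.

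Whether the CBP difference itself differed between the stages was tested as the change at 60h minus that at 0h. The labelled treatment time was 48 h at 0h and 60 h at 60h, so stage and treatment time cannot be told apart here. For 26 members the difference between stages did not pass. It was negative for 11, led by TYMS, ORC1 and TK1, and positive for E2F1 and POLD2, beside 26.7% of all genes called in the negative and 24.3% in the positive direction. The median over the members was -0.09, beside -0.01 for all genes tested. Of the licensing genes, ORC1 was at -0.62 ± 0.07 (adjusted p = 1.33e-05) and ORC6 at -0.40 ± 0.08. CDC6 was at -0.32 ± 0.10, but its call gives no support, as it entered the test only through the CBP libraries. CDT1, found by identifier, did not pass, at -0.07 ± 0.12 (adjusted p = 0.646). None of the 6 MCM ring genes passed, with differences from -0.03 (MCM6) to 0.11 (MCM2). E2F1 was at 0.32 ± 0.08 (adjusted p = 0.00638) and TYMS at -0.84 ± 0.08 (adjusted p = 6.13e-06). The call of POLD2 (0.39 ± 0.14, adjusted p = 0.0314) was lost without control 0h replicates 1 or 3, control 60h replicates 2 or 3, CBP 0h replicates 1 or 3, or CBP 60h replicates 1 or 2, at 0.32 to 0.40. That of GINS3 (-0.46 ± 0.16, adjusted p = 0.0298) was lost without control 0h replicates 1 or 2, control 60h replicates 2 or 3, CBP 0h replicates 1 or 3, or CBP 60h replicates 1 or 3, at -0.46 to -0.34. With every library kept, the calls of POLD2 and GINS3 were also lost with no filter on low values (adjusted p = 0.0725 and 0.0727). Across the 39 members, the changes at 0h and at 60h had a Pearson r of 0.67 and a Spearman rho of 0.64, as a description across genes that share libraries and are not independent, and the change was smaller at 60h in 28 and larger in 11.

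**Figure D4:**
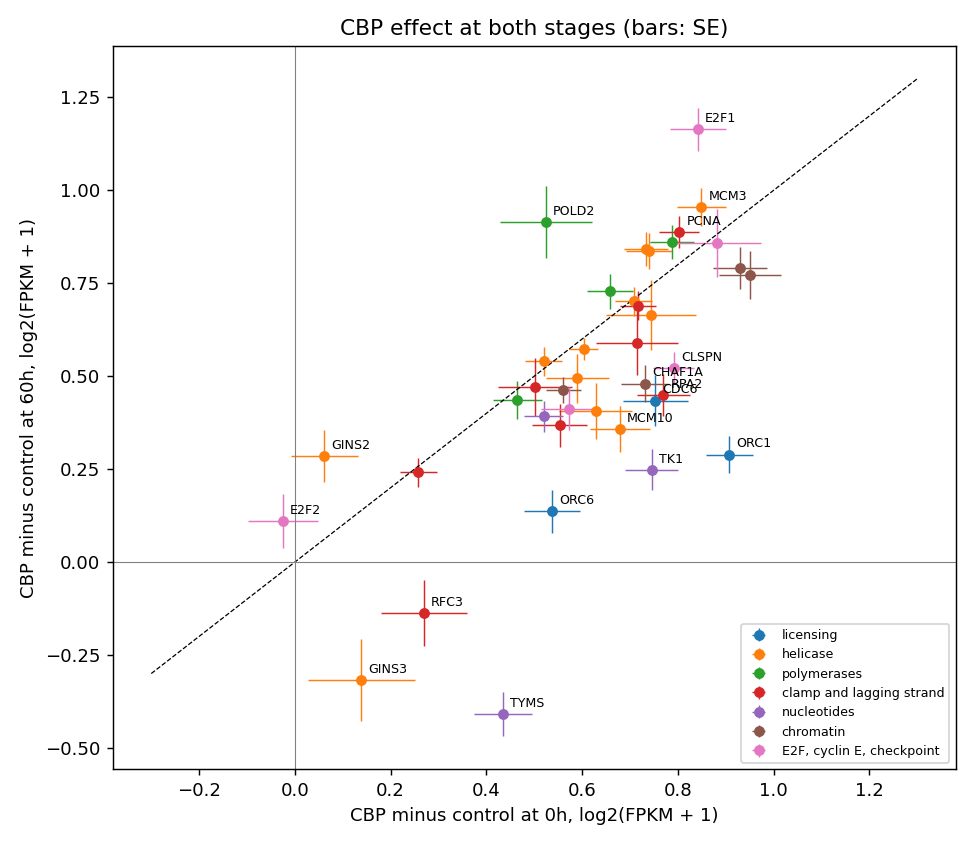
CBP minus control on the log2(FPKM + 1) scale at 0h (x axis) and at 60h (y axis) for the 39 members, coloured by role, with SE bars; the dashed line marks equal change. Most points lie in the upper right and below the line, with E2F1 and POLD2 above it and TYMS at 0.44 and -0.41.

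Other genes of the pathway were read from a further list of 57 names, chosen by role, of which 53 were found and 49 tested. At 0h 39 were higher in CBP cells, 0 lower and 10 neither, with a median of 0.36, and at 60h 31 were higher, 4 lower and 14 neither, with a median of 0.25, beside the all-gene shares given above. Under median-ratio scaling these counts were 30 higher and 2 lower, and 24 higher and 7 lower. Changes ran from -0.11 to 0.94 at 0h and from -0.71 to 1.17 at 60h. All genes named next were higher in CBP cells, and the 4 lower at 60h are not named. The largest called changes were those of the histone chaperone gene ASF1B at 0h (from 7.20 to 14.7 FPKM, log2 change 0.94 ± 0.09), of NASP, another histone chaperone gene, at 60h (from 16.8 to 39.0 FPKM, 1.17 ± 0.04), and of TIMELESS, which protects moving forks, at both (0.85 ± 0.07 and 1.03 ± 0.07). CDK2, the kinase partner of cyclin E, rose by 0.74 ± 0.06 and 0.77 ± 0.06.

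Genes upstream, in the RB pathway and among the CDK inhibitors, did not move in 1 direction. Of 14 found and tested, 5 were higher and 6 lower at 0h, and 8 higher and 6 lower at 60h (5 higher and 6 lower under median-ratio scaling). Of all genes tested, 44.2% were higher and 18.1% lower at 0h, and 44.7% and 27.0% at 60h, so the counts of higher genes lie near the background. The 6 of 14 lower were a larger share than among all genes at both stages, on few genes and without a test. Changes over the list ran from -1.93 to 0.62 at 0h and from -0.86 to 1.58 at 60h, with medians of -0.002 and 0.16. The genes named next were picked from it after their values were seen and do not stand for the list. Whether they bear on the members' changes was not tested. RB1, the E2F repressor, was lower in CBP cells at both stages, from 14.0 to 11.6 FPKM (-0.25 ± 0.04) and from 15.5 to 10.7 FPKM (-0.50 ± 0.04). CDKN1A, the p21 inhibitor gene that muscle cells induce on leaving the cycle, was lower by 0.18 ± 0.04 on that scale, from 688 to 608 FPKM, at 0h and went from 771 to 579 FPKM at 60h (-0.41 ± 0.04). CDKN1C, which encodes the p57 inhibitor, was lower at 0h (33.4 to 8.02 FPKM, -1.93 ± 0.09) and higher at 60h (28.8 to 88.4 FPKM, 1.58 ± 0.09). CCND1, the cyclin D1 gene, was higher at 0h (180 to 239 FPKM, 0.41 ± 0.06) and lower at 60h (51.7 to 28.5 FPKM, -0.84 ± 0.06).

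Mitosis genes act after replication. All 19 found were higher in CBP cells at 0h, with a median of 0.65, beside 44.2% of all genes tested, and at 60h 16 were lower, 0 higher and 3 neither, with a median of -0.56, beside 27.0% of all genes called lower. The stage difference was negative and called for 19 of 19, with a median of -1.13, beside 11 of 39 and -0.09 for the replication members and 26.7% of all genes. Under median-ratio scaling the counts were 19 higher at 0h and 17 lower at 60h.

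**Figure D5:**
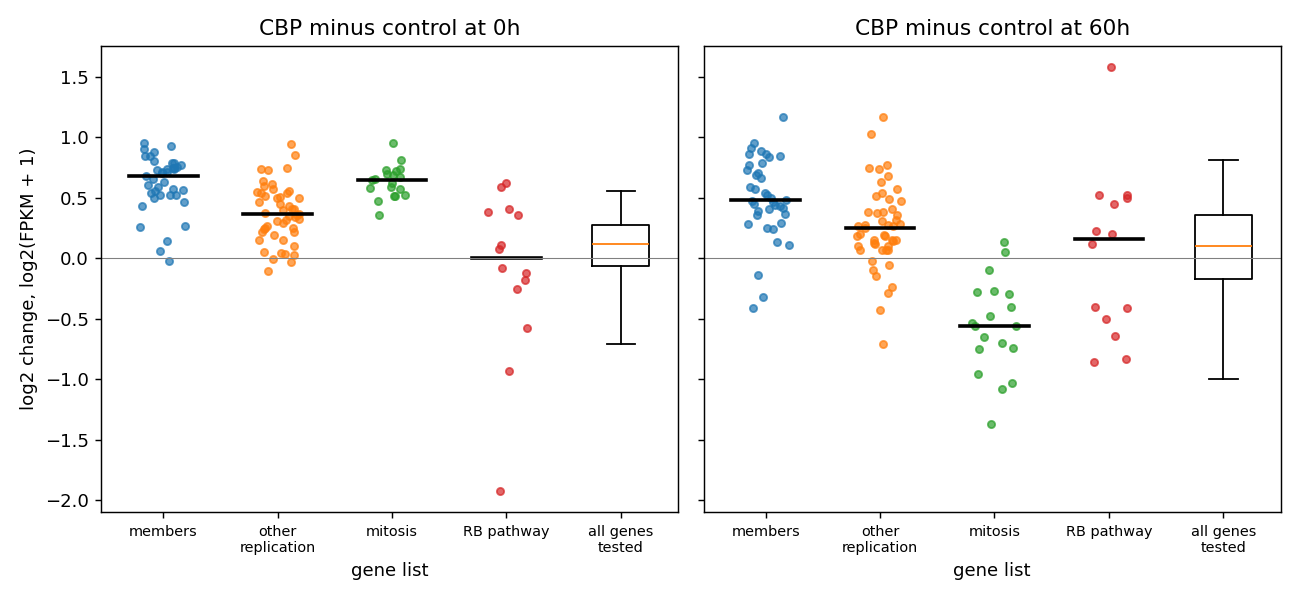
Change between CBP and control on the log2(FPKM + 1) scale at 0h (left) and 60h (right), 1 point per gene, with black bars at list medians; the box gives the quartiles of all 11636 genes tested, with whiskers at the percentiles 5 and 95. Members lie mostly above 0 at both stages, whereas the mitosis genes lie above 0 at 0h and mostly below it at 60h.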

How the data were processed

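RNA-seq of 12 libraries (4 groups of 3) was analysed from 1 table of FPKM values for 31908 genes, deposited by the authors. Trimmomatic, featureCounts and the Sscrofa11.1 build are named in the submitters' processing notes, without versions; not given in the sources used here are the aligner, the annotation release and whether strand was used. The FPKM values of all 22521 genes above 0 were whole multiples of 1 read to within 0.001, which gave each library's reads. No replicates agreed within sampling noise. Genes with at least 1 FPKM in 3 or more libraries (11636) were fitted as log2(FPKM + 1) with limma 3.58.1 (R 4.3.3, trended empirical Bayes, 4 group means); 5 comparisons were made, two-sided, with Benjamini-Hochberg adjustment over all genes and calls below 0.05. The code was tested on simulated data. Replicate numbers came from the sample titles and were not used as a block. Alternatives were a pseudocount of 0.1, no filter, median-of-ratios and TPM scaling, only the groups compared, a replicate block, leaving out each library and, added after seeing the data, limma-voom on the recovered reads. The members and lists were chosen with earlier results of these data known. Values per library are given for the member with the largest called change in each role at each stage, members called against the rest, and E2F1, E2F2, PCNA, MCM2, MCM5, CDC6, CDT1, CCNE1, CCNE2 and TYMS. Beyond that rule, members lie in stated ranges or carry their change, and RB1, CDKN1A, CDKN1C and CCND1 were named after their values were seen.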

Additional observations from a re-analysis of the deposited data

Results flagged for a closer look

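The difference between the CBP effect at 60h and that at 0h passed the test (limma, adjusted over all genes) for 13 members and for POLA2, all on the log2(FPKM + 1) scale. Of the 39 members 28.2% were called in the negative and 5.13% in the positive direction, beside 26.7% and 24.3% of all genes tested, so the negative share lies near the background. TYMS stood at -0.845, the one gene of these with called changes of opposite sign at the 2 stages. ORC1 was at -0.618 and ORC6 at -0.401. CDC6 was at -0.319, but its call gives no support, as it entered the test only through the CBP libraries. CDT1, a further licensing gene found by identifier, was at -0.069 and was not called. TK1 was at -0.497. GINS3 was at -0.456 and RFC3 at -0.406, with changes of 0.14 and 0.27 at 0h and of -0.32 and -0.14 at 60h. POLA2, found by identifier, was at -0.345, MCM10 at -0.321, RPA2 at -0.321, CLSPN at -0.27 and CHAF1A at -0.252, each with a change that was positive and called at both stages. In the other direction, E2F1 was at 0.322 and POLD2 at 0.39.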

How the results depend on the processing

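Up to 19 alternatives per result gave 4042 comparisons of a gene's change with the value reported. Of these, 3891 stayed on the same side of the threshold, 119 lost a call and 31 gained one. In 1 more, a called change turned sign: PCNA between stages in CBP cells, -0.10 as reported and 0.01 (adjusted p = 0.846) with TPM scaling. Sign turns between uncalled values are counted within the 3891. An example is GINS2 at 0h, 0.06 as reported and -0.05 with median-of-ratios scaling. Members called higher in CBP cells numbered 35 to 36 at 0h and 33 to 35 at 60h over these alternatives. Members lower at 60h than at 0h numbered 20 to 25 in control cells (24 as reported) and 24 to 32 in CBP cells (32 as reported). Small counts moved more in proportion. Members lower in CBP than in control cells at 60h (2 as reported) were 1 with no filter and with only the groups compared, and 1 to 2 when libraries were left out in turn. Members higher at 60h than at 0h in control cells (0 as reported) were 3 with TPM scaling, 2 with median-of-ratios scaling and 0 to 1 with a library left out; those in CBP cells (1 as reported) were 3, 3 and 1 to 2, and 2 with limma-voom. Positive stage differences of the CBP effect (2 as reported) were 1 with no filter and 1 to 2 with a library left out.

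Of the 26 members without a called stage difference, 6 passed with 1 library left out: GINS1 (-0.29), UHRF1 (-0.21) and RRM1 (-0.16) without CBP 60h replicate 1, RRM1 (-0.17) also without CBP 0h replicate 1, RFC5 (-0.23) without control 60h replicate 3, DTL (-0.21) without control 0h replicate 1 and GINS2 (0.29) without CBP 60h replicate 2. Between stages, calls of 12 genes in CBP cells and 13 in control cells changed under at least 1 alternative, all at reported changes of at most 0.31 in size; the cause was not tested.

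Samples with the same replicate number did not deviate together across groups (correlations of their deviations from -0.094 to 0.082), so the numbers were not taken to pair samples. A fit with the replicate block called 36 members higher at 0h, 34 higher and 2 lower at 60h, 23 lower at 60h in control and 30 lower in CBP cells. Depth limits CDC6 and GINS3 most, which had as few as 78 reads in a library.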
